A study of Mus musculus with 8 samples.

Results

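Hox genes encode homeodomain transcription factors that give embryonic tissues their position along the head-to-tail axis. They were taken as all genes of the expression table whose symbol is Hox, a cluster letter from a to d and a paralog number. That gave 39 of 24354 genes, of which 38 are described, with 10 in HoxA, 10 in HoxB, 9 in HoxC and 9 in HoxD. Genes of the same paralog number in different clusters derive from a common ancestral gene and carry related homeodomains. Within a cluster the genes lie in the order of their numbers, and in the embryo low numbers are switched on earlier and further forward than high numbers. In pluripotent cells the clusters are held silent by Polycomb proteins, and retinoic acid, WNT and FGF signals open them during the patterning of the hindbrain and spinal cord.

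The libraries came from 4 mouse cell groups of 2 libraries each. ESCs were wild type, of the E14 line. NSCs were grown from mice heterozygous for the OG2 transgene, a green fluorescent reporter driven by Oct4 (Pou5f1) sequence, and for ROSA26, a ubiquitously expressed lacZ insertion. EPSCs, cells with extended potential, were wild type and came from C57BL/6 embryos at the 8-cell stage kept in LCDM, a mixture of LIF and small molecules. Hybrid cells were made by polyethylene glycol fusion of EPSCs with those NSCs, picked for the Oct4 reporter, and are nearly tetraploid. Labels show a single line for each group, so p-values here measure only the spread between libraries of the same line, which may be technical. ESCs, EPSCs and hybrid cells were grown on inactivated embryonic fibroblasts, whereas NSCs were grown on gelatin with EGF and FGF2. Hybrid cells were kept in LCDM like EPSCs, and ESCs in a medium with serum and LIF. In every comparison with ESCs or NSCs the medium therefore differs along with the cell type, and its part was not tested. Depth estimated from the steps of low values ran from 21950000 to 32450000 fragments. Pou5f1 was listed at 0 in both NSC libraries and at 742 FPKM or more in the other 6, while the neural stem cell marker Fabp7 stood at 2798 and 2709 FPKM in NSCs and at most 0.238 FPKM elsewhere.

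The clusters lie on different chromosomes. In GRCm38, which is the mm10 build of the files, the genes described span chr6:52162417-52260880 in HoxA, chr11:96194316-96368254 in HoxB, chr15:102921131-103036856 in HoxC and chr2:74668225-74765142 in HoxD. RefSeq promoter windows were found for 22 of the 38 genes, 24 windows in all because Hoxa10 and Hoxd11 had 2 starts each. The 250 bases before the start are shown for 5 genes on which the results below turn. They are Hoxa5 and Hoxa3, the Hox genes with the highest NSC levels, Hoxa7 and Hoxa9, neighbours between which the NSC level drops, and Hoxd3, the HoxD counterpart of Hoxa3. Each is written 5′ to 3′ along the gene's own strand with every CG dinucleotide in capitals. Hoxa5 is chr6:52204588-52204837, Hoxa3 chr6:52213068-52213317, Hoxa7 chr6:52218574-52218823 and Hoxa9 chr6:52227371-52227620, all on the minus strand, and Hoxd3 is chr2:74711743-74711992 on the plus strand.
Hoxa5: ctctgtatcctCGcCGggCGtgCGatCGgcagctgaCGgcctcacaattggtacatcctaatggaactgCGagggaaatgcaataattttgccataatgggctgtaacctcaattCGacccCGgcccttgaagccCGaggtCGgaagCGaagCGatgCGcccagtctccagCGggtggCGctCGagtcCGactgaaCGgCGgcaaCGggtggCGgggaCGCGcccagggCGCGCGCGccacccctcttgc
Hoxa3: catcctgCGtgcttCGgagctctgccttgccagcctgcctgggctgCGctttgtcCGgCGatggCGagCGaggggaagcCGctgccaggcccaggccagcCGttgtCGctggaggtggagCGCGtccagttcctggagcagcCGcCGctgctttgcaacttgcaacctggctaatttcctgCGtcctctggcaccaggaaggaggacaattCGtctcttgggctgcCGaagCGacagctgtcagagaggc
Hoxa7: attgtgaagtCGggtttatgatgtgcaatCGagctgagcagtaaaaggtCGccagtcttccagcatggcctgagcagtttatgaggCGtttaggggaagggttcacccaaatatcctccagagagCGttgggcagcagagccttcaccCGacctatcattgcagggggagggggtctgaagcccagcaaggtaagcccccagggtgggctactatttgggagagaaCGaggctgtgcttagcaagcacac
Hoxa9: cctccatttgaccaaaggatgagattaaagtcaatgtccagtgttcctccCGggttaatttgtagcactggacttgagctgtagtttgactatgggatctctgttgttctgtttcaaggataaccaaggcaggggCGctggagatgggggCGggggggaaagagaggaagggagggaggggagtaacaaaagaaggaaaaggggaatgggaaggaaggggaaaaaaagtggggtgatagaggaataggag
Hoxd3: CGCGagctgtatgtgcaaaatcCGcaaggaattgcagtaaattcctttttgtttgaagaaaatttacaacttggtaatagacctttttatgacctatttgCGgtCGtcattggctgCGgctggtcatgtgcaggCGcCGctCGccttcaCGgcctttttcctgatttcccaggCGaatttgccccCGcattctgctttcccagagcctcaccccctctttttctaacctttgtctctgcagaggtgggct

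These windows hold 28 CG dinucleotides for Hoxa5, 18 for Hoxa3, 7 for Hoxa7, 3 for Hoxa9 and 12 for Hoxd3. Over the 24 Hox windows the median was 12.5 CG, against 6 over all 32851 mouse windows of the same length, and the median G+C content was 58.6% against 52.4%. CG density did not sort the genes by their NSC level. The 5 windows of genes with a mean of at least 1 FPKM in NSCs (Hoxa2, Hoxa3, Hoxa5, Hoxa6 and Hoxa7) held 6 to 28 CG with a median of 18, and the other 19 held 2 to 35 with a median of 12. The composite site of HOX with its partner PBX, searched as TGATNNAT on both strands, was found in 4 of 24 windows (16.7%) and in 7.68% of all mouse windows. The letters TTTATG, the core bound by caudal (CDX) factors, were found on either strand in 5 of 24 windows (20.8%) and in 10.8% of all. The TATA box letters TATAAA were found in 4 of 24 windows (16.7%) and in 12.4% of all. A match of letters is a description and not evidence of binding.

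In NSCs, Hox expression was confined to the front part of HoxA, Hoxa2 to Hoxa7, apart from traces of Hoxa9 and Hoxa10, while all 28 genes of HoxB, HoxC and HoxD were listed at 0. In the other groups every cluster gave low signal. The summed FPKM of the 38 genes was 45.9 ± 4.24 in NSCs, 16.2 ± 0.203 in hybrid cells, 7.03 ± 0.521 in EPSCs and 6.17 ± 0.554 in ESCs (SD, n = 2 in each). HoxA made up 100% of that sum in both NSC libraries, 9.43% and 10.1% in ESCs, 11.7% and 7.96% in EPSCs, and 4.83% and 5.11% in hybrid cells. Hybrid cells carry chromosomes of both parents, yet their HoxA sum of 0.803 ± 0.0426 FPKM lay nearer that of EPSCs, 0.685 ± 0.136, than that of NSCs, 45.9 ± 4.24. In HoxB the hybrid sum, 7.49 ± 0.571, stood above both parents, at 2.80 ± 0.294 in EPSCs and listed at 0 in NSCs. HoxC was similar, with 6.21 ± 0.518 in hybrid cells, 2.67 ± 0.256 in EPSCs and 0 in NSCs. HoxD sums were low throughout, at 1.65 ± 0.107 in hybrid cells, 0.878 ± 0.107 in EPSCs and 1.19 ± 0.222 in ESCs, with NSCs at 0. FPKM divides by transcript length, so levels of different genes can be set side by side. In bulk RNA of this kind, fewer cells of a type and less RNA per cell cannot be told apart.

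**Figure D1:**
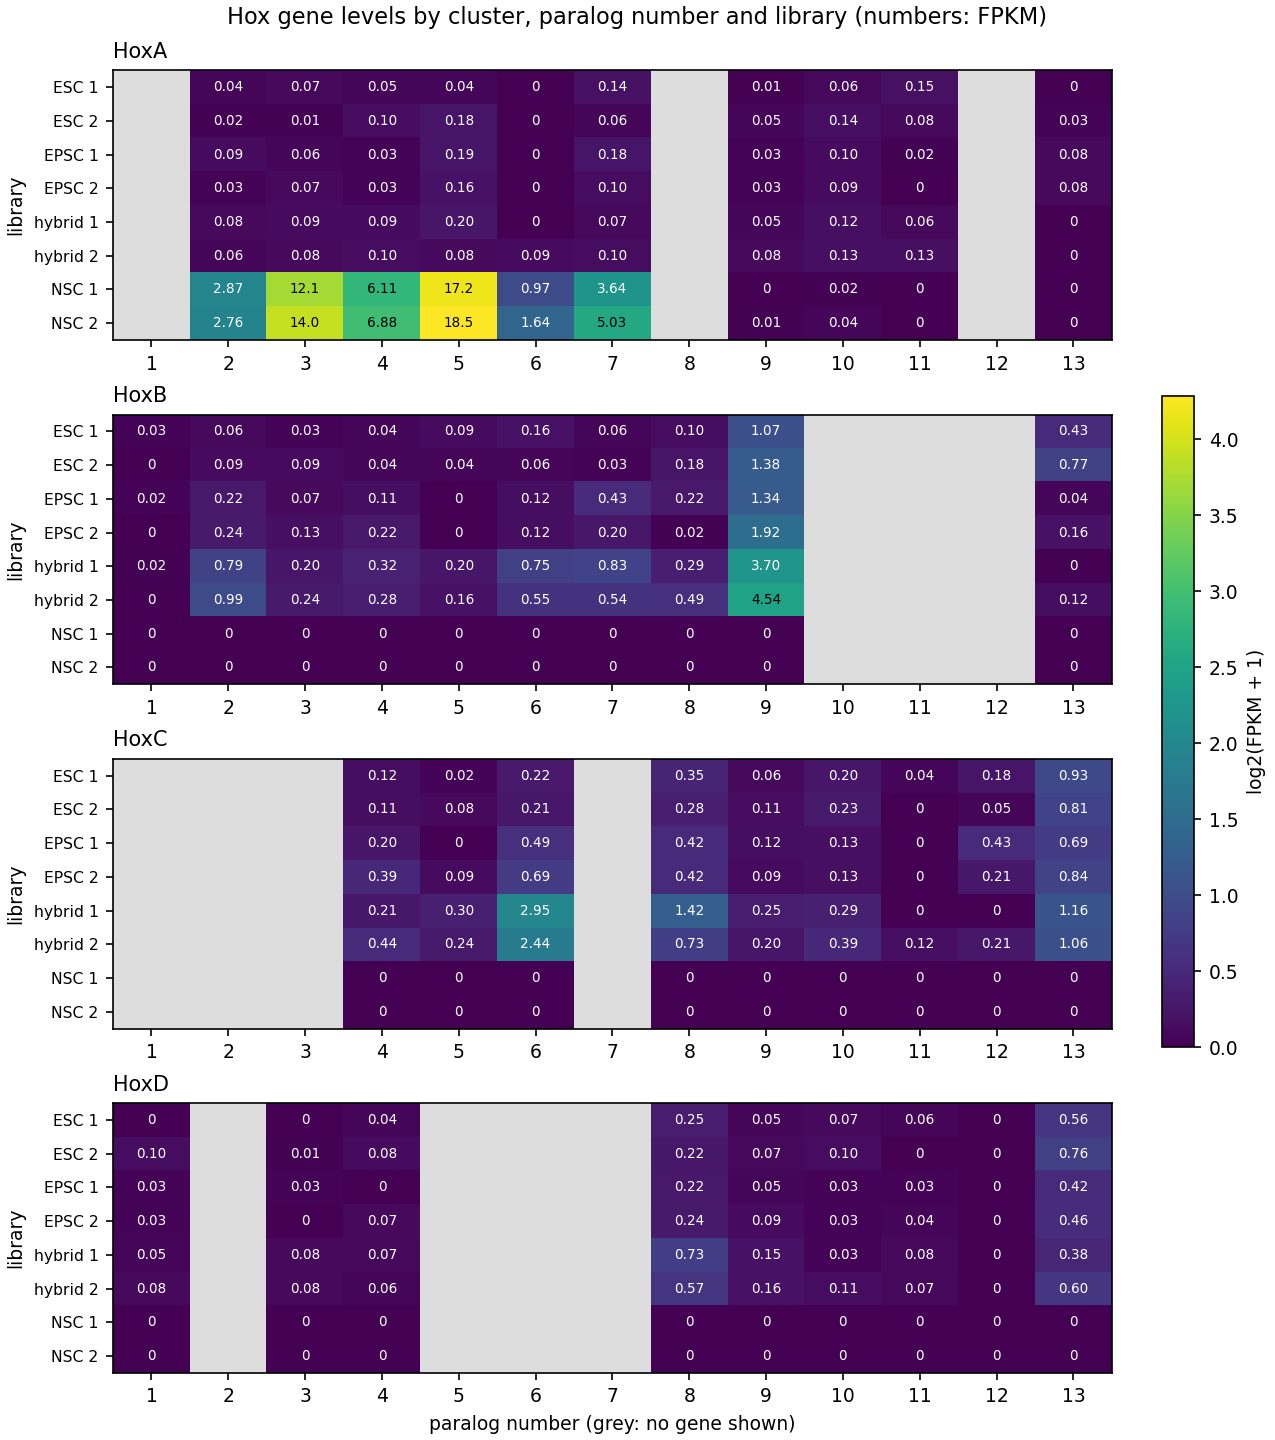
FPKM of each Hox gene (printed in each cell, colour on a log2(FPKM + 1) scale) by paralog number (columns) and library (rows), with a panel for each cluster and grey where no gene is shown. Both NSC rows are filled from Hoxa2 to Hoxa7 and are 0 throughout HoxB, HoxC and HoxD.

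**Figure D2:**
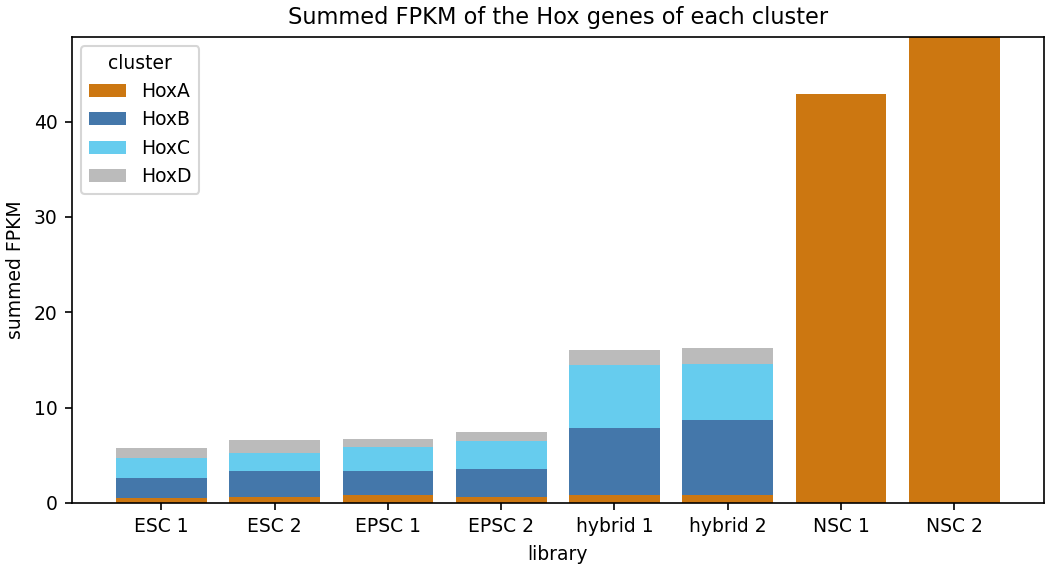
Summed FPKM of the Hox genes (vertical axis) in each of the 8 libraries, with bars stacked by cluster. NSC bars, at 42.9 and 48.9 FPKM, consist of HoxA alone, and hybrid bars are mostly HoxB and HoxC.

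Of the 38 genes, 10 had a mean of at least 1 FPKM in at least 1 group and entered the limma test, which was fitted on log2(FPKM + 1) over all 13239 genes that passed this filter. These were Hoxa2 to Hoxa7, Hoxb9, Hoxc6, Hoxc8 and Hoxc13. Hoxb9 reached the filter in 3 groups, and the other 9 in a single group, so for those 9 a difference between groups was built into their selection. The same holds for Mira, Meis1 and Rarb, which reached the filter in NSCs alone, and for Gm53, which reached it in hybrid cells alone. Hoxc8, with a hybrid mean of 1.08 FPKM, was just inside the limit, and Hoxb2, with a hybrid mean of 0.890 FPKM, was just outside it. The highest mean among the 28 genes not tested was 0.890 FPKM in hybrid cells, 0.662 in ESCs, 0.437 in EPSCs and 0.0267 in NSCs. Hoxd12 was listed at 0 in all 8 libraries.

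HoxA was described along its paralog numbers, beginning with the genes of the hindbrain and pharyngeal arches. Outside NSCs the highest value of the 10 HoxA genes was 0.199 FPKM, for Hoxa5. Hoxa2, which sets the identity of the second pharyngeal arch, was at 2.87 and 2.76 FPKM in NSCs and between 0.0211 and 0.0866 FPKM in the other 6 libraries. Hoxa3, needed for thymus and parathyroid formation from the third arch, was at 12.1 and 14.05 FPKM in NSCs and between 0.0143 and 0.0889 elsewhere. Neither gene overlapped between NSCs and the other groups.

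The genes of paralog numbers 4 to 7, which act at cervical and upper thoracic levels, showed the same arrangement. Hoxa4 was at 6.11 and 6.88 FPKM in NSCs and between 0.0329 and 0.0997 in the other libraries. Hoxa5, which patterns the cervical to thoracic boundary and the lung, was the highest Hox gene of all, at 17.2 and 18.5 FPKM in NSCs and between 0.0364 and 0.199 elsewhere. Hoxa6 was the lowest of the 6 HoxA genes tested, at 0.974 and 1.64 FPKM in NSCs, 0.0896 in hybrid library 2 and 0 in the other 5. Its NSC libraries spread by an SD of 0.472 FPKM around a mean of 1.31. Hoxa7 was at 3.64 and 5.03 FPKM in NSCs and between 0.0570 and 0.182 elsewhere. The next gene in the cluster, Hoxa9, was listed at 0 and 0.0121 FPKM in NSCs, and Hoxa10 at 0.0179 and 0.0355, both under the level that 3 fragments would give on a transcript of 2 kb in those libraries (0.0587 and 0.0584 FPKM, counting error only). Hoxa11 and Hoxa13 were listed at 0 in NSCs. Ordered by mean, the NSC levels ran Hoxa5, Hoxa3, Hoxa4, Hoxa7, Hoxa2 and Hoxa6, and between neighbours in that order the values of the libraries did not overlap. According to RefSeq, Hoxa3 overlaps Hoxa4, Hoxa5 and Hoxa6, so how reads were divided among these 4 genes is uncertain.

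All 6 HoxA genes tested were lower in hybrid cells, in EPSCs and in ESCs than in NSCs. In hybrid cells against NSCs, limma with Benjamini-Hochberg adjustment over all genes tested called 6 Hox genes lower and 4 higher, beside 42.0% of all genes tested that were lower and 44.5% that were higher. Most genes differ between these cell types, so the count itself says little about Hox genes, and the sizes below describe genes that passed the filter through NSCs. Hoxa5 fell by 4.05 on the log2(FPKM + 1) scale (SE 0.09, adjusted p = 1.5e-08) and Hoxa3 fell by 3.70 (SE 0.08, adjusted p = 1.35e-08). Hoxa4 fell by 2.77, Hoxa7 by 2.28, Hoxa2 by 1.84 and Hoxa6 by 1.13, with adjusted p up to 7.08e-05. This scale understates the change of genes near 0.

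The unfused pluripotent cells gave nearly the same picture for HoxA, in comparisons that share the NSC libraries. In EPSCs against NSCs, 6 Hox genes were called lower and 4 higher, beside 41.0% and 45.2% of all genes. In ESCs against NSCs the counts were again 6 lower and 4 higher, beside 41.9% and 42.8%. Hoxa5 fell by 4.005 from NSCs to EPSCs and by 4.09 from NSCs to ESCs. The 4 genes called higher in all 3 comparisons were Hoxb9, Hoxc6, Hoxc8 and Hoxc13, each listed at 0 in NSCs. The weakest of these calls were lost in some alternative fits. With quantile normalization, limma lost Hoxc8 in EPSCs (adjusted p = 0.0819), and Hoxc6 and Hoxc8 in ESCs (adjusted p = 0.0951 and 0.148). Without a filter, Hoxc8 was also lost in ESCs (adjusted p = 0.0523). In EPSCs Hoxc8 was lost without either NSC library (adjusted p = 0.0512 and 0.0507), and in ESCs Hoxc6 and Hoxc8 were lost without any of the ESC or NSC libraries (adjusted p up to 0.0787 and 0.129).

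By the rule of fold in the study's methods (read here as a mean above 3 FPKM in the higher group and a ratio above 3, without a test), 4 Hox genes were lower and 1 higher in hybrid cells than in NSCs, beside 15.8% of all genes. The lower genes were Hoxa3, Hoxa4, Hoxa5 and Hoxa7, and the higher gene was Hoxb9. The same 4 HoxA genes passed in EPSCs (15.6% of all genes) and in ESCs (15.0%) against NSCs, with 0 Hox genes higher. Hoxa2 and Hoxa6 stayed below the level limit of 3 FPKM.

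The absence of HoxB, HoxC and HoxD signal from NSCs was compared with that of other genes. Of the 17 genes of these clusters that were above 0 in all 6 other libraries, 17 were listed at 0 in both NSC libraries, beside 6.70% of all genes with signal in those 6. Of the 27 with signal in at least 1 of the 6, 27 were at 0 in NSCs, beside 16.7% of all such genes. HoxA did not share this, since 0 of its 7 genes with signal in all 6 libraries were at 0 in NSCs. The shares of all genes cover every level of expression and were not matched to the low Hox levels outside NSCs. None of 20 widely used genes was at 0 in NSCs, the lowest being Tbp at 15.1 FPKM. Genes at such levels cannot show how often genes as low as these Hox genes are listed at 0. The depth of the NSC libraries limits the absence of signal to levels below about 0.0587 FPKM for a transcript of 2 kb.

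Hybrid cells were then set against their pluripotent parent. Hoxb9, which patterns thoracic vertebrae and ribs, was at 3.70 and 4.54 FPKM in the hybrid libraries, 1.34 and 1.92 in EPSCs and 1.07 and 1.38 in ESCs. Hoxc6, a gene of the thoracic region, was at 2.95 and 2.44 FPKM in the hybrid libraries, 0.491 and 0.691 in EPSCs and 0.218 and 0.214 in ESCs. In both, the hybrid libraries lay above all 6 others. Hoxc8, which acts at brachial and thoracic levels, was at 1.42 and 0.730 FPKM in the hybrid libraries, 0.418 and 0.422 in EPSCs and 0.353 and 0.277 in ESCs. Hoxc13, known for hair and nail formation, was at 1.16 and 1.06 FPKM in the hybrid libraries, 0.690 and 0.839 in EPSCs and 0.932 and 0.807 in ESCs. All 4 were at 0 in both NSC libraries, and hybrid cells were above EPSCs without overlap in each.

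In hybrid cells against EPSCs, limma called 4 Hox genes higher and 0 lower, beside 22.5% of all genes tested that were higher and 21.9% that were lower. Hoxc6, Hoxc8 and Hoxc13 passed the filter through hybrid cells alone, so for them a higher hybrid level was built into their selection. Hoxc6 was 4.56-fold higher by mean FPKM, with a difference of 1.22 on the log2(FPKM + 1) scale (SE 0.09, adjusted p = 0.000189). Hoxb9 was 2.53-fold higher, with a difference of 0.97 (SE 0.13, adjusted p = 0.00158). Hoxc8 differed by 0.53 (SE 0.14, adjusted p = 0.0205) and Hoxc13 by 0.26 (SE 0.07, adjusted p = 0.0261). The call of Hoxc8 was lost without EPSC library 1 or 2 (adjusted p = 0.0709 and 0.0672), and that of Hoxc13 without hybrid library 1 or EPSC library 1 (adjusted p = 0.0825 and 0.119). Hoxc13 was also lost with a pseudocount of 0.1 (adjusted p = 0.0599) and with quantile normalization (adjusted p = 0.0755). Hoxb9 and Hoxc6 were called whichever of the 8 libraries was left out. Under the rule of fold, 0 Hox genes passed (0.866% of all genes did), since Hoxb9 missed the ratio and Hoxc6 the level. For the other 6 genes tested, Hoxa2 to Hoxa7, differences lay between -0.07 and 0.09 with adjusted p of 0.385 or more.

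Library values were then compared over all Hox genes, the 4 called genes and those too low to be tested included. Of 37 Hox genes above 0 in either group, both hybrid libraries exceeded both EPSC libraries in 24, beside 30.9% of all genes, and both lay below in 1 (Hoxa13), beside 28.9%. The 24 comprised 8 of 10 HoxB genes, 6 of 9 in HoxC, 5 of 8 in HoxD and 5 of 10 in HoxA. Hoxb2 was at 0.791 and 0.988 FPKM in hybrid cells against 0.223 and 0.245 in EPSCs. Hoxb6 was at 0.749 and 0.552 against 0.122 and 0.117, and Hoxd8 at 0.731 and 0.568 against 0.221 and 0.237. The lower of these values rest on few fragments, since 1 fragment on a transcript of 2 kb corresponds to 0.0233 to 0.0253 FPKM in the hybrid and EPSC libraries. Hoxb13 and Hoxd13 instead overlapped between hybrid cells and EPSCs. Hoxb13, which acts at the tail end, was at 0.435 and 0.768 FPKM in ESCs, 0.0411 and 0.157 in EPSCs and 0 and 0.119 in hybrid cells. Hoxd13 was at 0.563 and 0.761 FPKM in ESCs, 0.417 and 0.458 in EPSCs and 0.383 and 0.597 in hybrid cells.

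Marker genes of fibroblasts, the cell type of the feeder layer, moved with this result. Fibroblasts carry a Hox expression pattern of the body site from which they were taken. The 17 listed fibroblast markers summed to 410 and 304 FPKM in the hybrid libraries, 113 and 109 in EPSCs, 23.0 and 26.1 in ESCs and 53.3 and 48.9 in NSCs. All 16 markers that were tested were called higher in hybrid cells than in EPSCs by limma, beside 22.5% of all genes tested, and Col1a1, a fibroblast collagen, was at 61.0 and 46.2 FPKM against 13.7 and 15.7. The hybrid to EPSC ratio of the summed markers was 3.22, next to 2.68 for the HoxB sum, 2.33 for the HoxC sum, 1.87 for the HoxD sum and 1.17 for the HoxA sum. Per 100 FPKM of fibroblast markers, Hoxb9 came to 0.903 and 1.49 FPKM in hybrid cells and 1.18 and 1.76 in EPSCs, which overlap. Hoxc8 came to 0.347 and 0.240 against 0.369 and 0.388, Hoxc13 to 0.282 and 0.350 against 0.610 and 0.771, and Hoxc6 to 0.720 and 0.803 against 0.434 and 0.635. On this scale Hoxc6 lay above EPSCs in both hybrid libraries, and Hoxc8 and Hoxc13 lay below. The HoxC sum came to 1.61 and 1.92 in hybrid cells against 2.198 and 2.62 in EPSCs, also below, and the HoxB sum to 1.73 and 2.60 against 2.29 and 2.76, which overlap. In ESCs the same ratio was 4.64 and 5.29 for Hoxb9, and 0.949 and 0.820 for Hoxc6, above both hybrid libraries. In NSCs, grown without feeders, 4 of the 17 markers, among them the defining genes Col1a2 and Lum, were at 0 in both libraries. Others had signal there, with means of 16.4 FPKM for Col6a1, 11.6 for S100a4, 7.95 for Prrx2 and 7.03 for Prrx1, and limma called Prrx2 and Pdgfra lower in hybrid cells than in NSCs. Postn, another marker of the list, is also used by the study as a gene of EPSCs, and whether feeder cells were removed before RNA extraction is not given in the sources used here. The part of feeder RNA in the HoxB and HoxC levels was not tested.

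**Figure D3:**
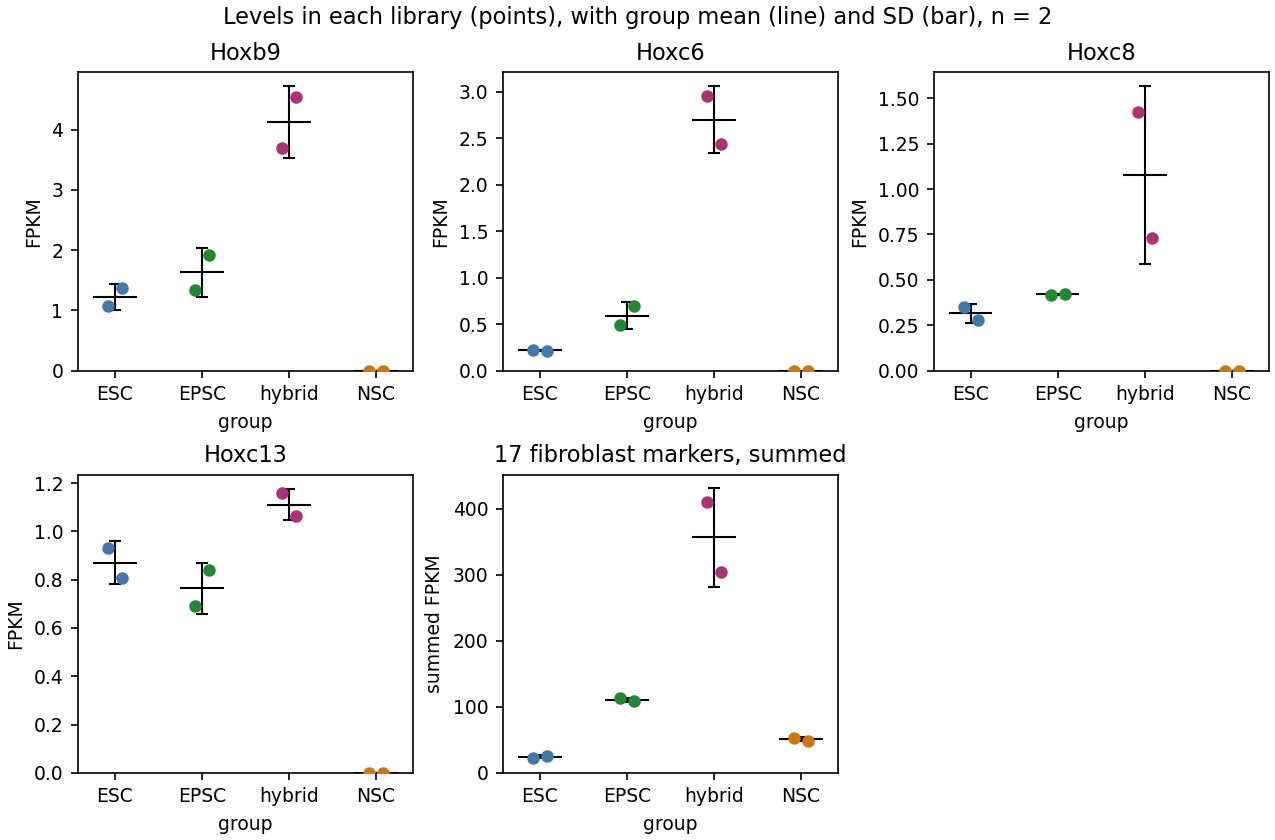
FPKM in each library (points) by group for the 4 Hox genes called between hybrid cells and EPSCs, and the summed FPKM of the 17 fibroblast markers, with group mean and SD (n = 2). In all 5 panels both hybrid libraries lie above the 6 others.

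Hybrid cells and EPSCs were also compared with ESCs. In EPSCs against ESCs, limma called 1 Hox gene higher and 0 lower, beside 33.7% and 27.3% of all genes tested. That gene was Hoxc6, 2.73-fold higher by mean FPKM with a difference of 0.38 (SE 0.09, adjusted p = 0.00885). Its means of 0.591 FPKM in EPSCs and 0.216 in ESCs were both below the filter, which it passed through hybrid cells alone. It was therefore not tested with these groups alone. Hoxb9, with a difference of 0.24 (SE 0.13, adjusted p = 0.163), did not pass, but was called without EPSC library 1. By the rule of fold 0 Hox genes passed, beside 2.57% of all genes. In hybrid cells against ESCs, 3 Hox genes were called higher and 0 lower, beside 35.3% and 30.2%. They were Hoxc6, 12.5-fold higher (difference 1.60, SE 0.09, adjusted p = 1.03e-05), Hoxb9, 3.37-fold higher (1.20, SE 0.13, adjusted p = 0.000184), and Hoxc8, 3.42-fold higher (0.64, SE 0.14, adjusted p = 0.00535). For Hoxc6 and Hoxc8, which passed the filter through hybrid cells alone, this direction was built into their selection. Hoxb9 alone also passed the rule of fold, beside 3.63% of all genes, but not without ESC library 1. Both hybrid libraries exceeded both ESC libraries in 22 of 37 Hox genes (39.5% of all genes) and lay below in 1, Hoxb13 (35.3%). Both EPSC libraries exceeded both ESC libraries in 8 of 36 Hox genes (39.0% of all genes) and lay below in 7 (34.8%). Here too the fibroblast sum was higher in hybrid cells, by 14.5-fold, and in EPSCs, by 4.52-fold, than in ESCs, and its part was not tested.

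RNAs made within or beside the clusters were read next. Of 16 listed noncoding genes 10 were in the table and 3 reached the limit for testing. Hotairm1, a noncoding RNA of the front part of HoxA, transcribed on the opposite strand, was at 25.2 and 32.2 FPKM in NSCs, 5.38 and 2.94 in ESCs, 2.69 and 3.16 in EPSCs and 2.41 and 0.783 in hybrid cells. Mira, which lies between Hoxa6 and Hoxa7, was at 9.50 and 8.31 FPKM in NSCs and at most 0.746 elsewhere. Both were highest in NSCs, with differences of -3.58 (adjusted p = 2.08e-05) and -2.65 (adjusted p = 3.6e-07) between hybrid cells and NSCs. Mira was also called higher in hybrid cells than in EPSCs, by 0.50 (SE 0.12, adjusted p = 0.0126; 0.0579 without EPSC library 2), and than in ESCs, by 0.45 (SE 0.12, adjusted p = 0.0118), from 0.429 and 0.746 FPKM in the hybrid libraries.

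In HoxB, Gm53, a noncoding gene between Hoxb13 and Hoxb9, was at 3.01 and 4.31 FPKM in the hybrid libraries, 0.565 and 1.29 in EPSCs, 0.557 and 1.13 in ESCs and 0 in NSCs. It was called higher in hybrid cells than in EPSCs (difference 1.29, SE 0.22, adjusted p = 0.00367). The fibroblast sum was also higher in hybrid cells than in EPSCs, by 3.22-fold. Its part in the levels of Mira, Gm53 and Hoxb5os was not tested. Hoxb5os, antisense to Hoxb5, was too low to be tested, at 0.909 and 0.822 FPKM in hybrid cells and 0.124 and 0.117 in EPSCs, and at 0 in both other groups. It overlaps Hoxb5 and Hoxb6 in RefSeq, and although the libraries were made with a stranded kit, the strand setting of the counting is not given in the sources used here, so how reads were divided among these genes is uncertain. Hotair, of the HoxC cluster, was listed at 0 in all 8 libraries. Halr1, a noncoding gene beside HoxA, ran the other way, at 18.3 and 17.2 FPKM in ESCs, 8.27 and 9.58 in EPSCs, 6.62 and 6.97 in hybrid cells and 2.91 and 3.14 in NSCs.

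HOX proteins bind DNA together with TALE homeodomain cofactors of the PBX, MEIS and PKNOX families. All 8 cofactors described were tested, and limma called 8 lower in hybrid cells than in NSCs, beside the 42.0% of all genes given above. Meis1 was at 22.2 and 24.0 FPKM in NSCs, 0.635 and 0.393 in hybrid cells, 0.432 and 0.332 in EPSCs and 0.343 and 0.362 in ESCs. Meis2 was at 18.2 and 19.3 FPKM in NSCs and between 0.513 and 1.84 in the others. Pknox1 was at 16.0 and 16.3 FPKM in NSCs and between 8.71 and 11.3 in the others. NSC libraries stood far above all others in Meis1 and Meis2, with differences of -3.996 and -3.62 between hybrid cells and NSCs (adjusted p up to 2.02e-08). Pbx2 was at 12.5 and 13.7 FPKM in NSCs, 10.7 and 11.9 in hybrid cells and between 13.8 and 16.9 in EPSCs and ESCs. In hybrid cells against EPSCs, limma called 1 cofactor higher and 1 lower, beside 22.5% and 21.9% of all genes tested. Meis3 was higher by 0.45 (adjusted p = 0.0182), and Pbx2 was lower by 0.50 (adjusted p = 0.00243). Its fall of 0.20 from NSCs to hybrid cells passed (adjusted p = 0.0434) but was lost in 6 of 15 alternative fits, with adjusted p from 6.93e-05 to 0.622 over those fits. Against NSCs, EPSCs had 7 cofactors lower and Pbx2 higher, and ESCs had 7 lower with Pbx2 not called, beside 41.0% and 41.9% of all genes tested that were lower.

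**Figure D4:**
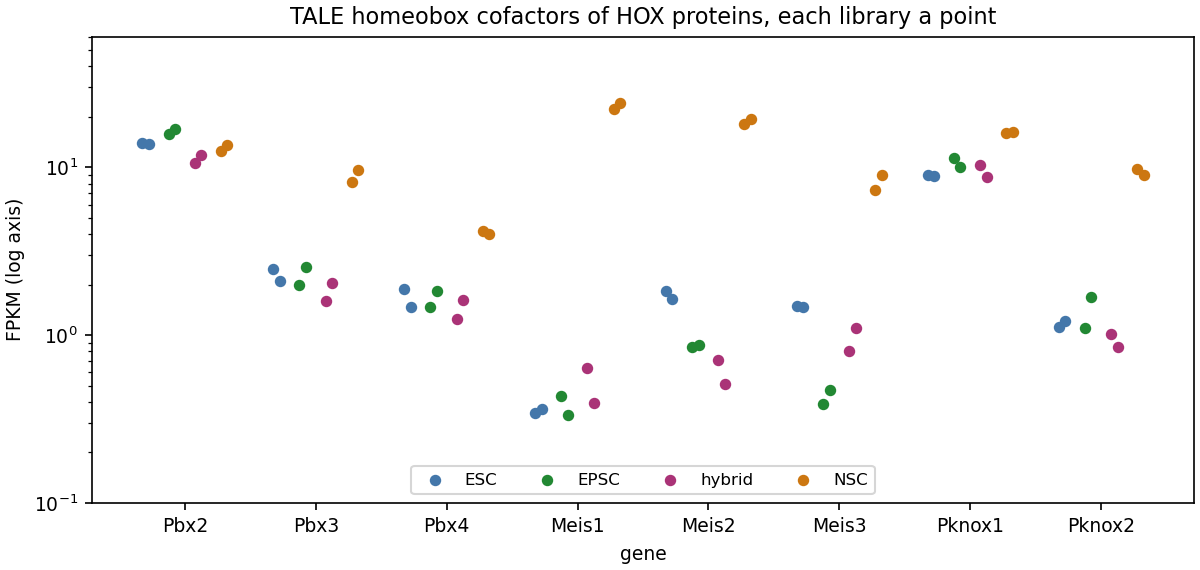
FPKM (log axis) of the 8 TALE cofactors in each library, coloured by group. NSC points stand highest in each gene but Pbx2, whose levels lie between 10.7 and 16.9 FPKM in all groups.

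Regulators that act upstream of the clusters were listed in 2 groups. Of 5 caudal and cluster-flanking homeobox genes, all 5 were at 0 in NSCs and 2 were tested, Cdx1 and Evx1. Among all genes with signal in at least 1 of the other 6 libraries, 16.7% were at 0 in NSCs. Evx2 was at 0 in all 8 libraries, and the group means of Cdx2 and Cdx4 were at most 0.661 and 0.293 FPKM. Cdx1, a caudal factor that activates trunk Hox genes, was at 10.9 and 12.8 FPKM in the hybrid libraries, 11.1 and 15.4 in EPSCs and 2.71 and 2.74 in ESCs. The levels of hybrid cells and EPSCs overlapped and both lay above ESCs, with a difference of 1.92 (SE 0.15, adjusted p = 4.89e-05) between EPSCs and ESCs. Evx1, which lies beyond Hoxa13, was at 1.32 and 0.723 FPKM in hybrid cells and 1.40 and 0.878 in EPSCs.

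Of 15 other regulators, 14 were tested, and in hybrid cells against NSCs 7 were called higher and 6 lower, close to the 44.5% and 42.0% of all genes tested. Retinoic acid receptors split between the groups. Rarb, whose own promoter responds to retinoic acid, was at 15.2 and 16.4 FPKM in NSCs and at most 0.263 elsewhere, a difference of -3.87 between hybrid cells and NSCs (adjusted p = 2.62e-08). Rarg was at 2.07 and 1.96 FPKM in NSCs, 41.9 and 26.0 in hybrid cells, 44.1 and 27.7 in EPSCs and 56.5 and 56.0 in ESCs. Polycomb genes were split too. Bmi1, of Polycomb complex 1, was at 39.1 and 42.3 FPKM in NSCs and 4.33 and 6.20 in hybrid cells. Eed, of Polycomb complex 2, was at 19.6 and 19.5 FPKM in NSCs and 152 and 117 in hybrid cells, and Ezh2, the methyltransferase of that complex, at 57.8 and 63.1 against 69.0 and 79.5. Suz12, of the same complex, was at 32.7 and 38.6 FPKM in NSCs and 117 and 123 in hybrid cells. Men1, a partner of Trithorax methyltransferases, was at 40.4 and 39.4 FPKM in NSCs and 22.6 and 23.5 in hybrid cells. Kmt2a, the Trithorax methyltransferase that maintains Hox expression, was at 12.0 and 12.5 FPKM in NSCs and 10.4 and 11.9 in hybrid cells, a difference of -0.13 (SE 0.11) that did not pass (adjusted p = 0.288).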

How the data were processed

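Total RNA from 8 libraries was sequenced by the authors after poly-A selection, trimmed with skewer, aligned to mm10 with STAR 2.7.9a and quantified with Cuffnorm of Cufflinks 2.2.1. The deposited values are FPKM for each gene and library. The libraries were made with a stranded kit. Gene annotation, the strand setting of the counting and library normalization are not given in the sources used here. The Hox genes and the gene lists were chosen with earlier results of these data known. A few genes, 1 Hox gene among them, entered the fits over all genes but are not reported here. Each column was matched to its sample by name, with 0 columns left over.

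Groups were compared with limma 3.58.1 (R 4.3.3; lmFit, contrasts and eBayes with trend, two-sided) on log2(FPKM + 1), a pseudocount of 1, with all 4 groups in a fit of 8 libraries. Genes with a mean of at least 1 FPKM in at least 1 group were tested, and calls were made at a Benjamini-Hochberg adjusted p under 0.05 over all of them. An exact permutation test of 2 against 2 libraries cannot go below 0.333 and was not used. The limma step was tested on simulated data. Depth was estimated from the steps of low FPKM values of 2247 genes with a single transcript of at least 1500 bases, assuming fragments of 200 bases. Intervals and floors cover counting error only. Every Hox gene described was accounted for, those with a mean of at least 1 FPKM by library, and of each list the highest genes in NSCs, with others chosen after their values were seen. Promoter windows came from RefSeq of GRCm38.p6, and positions from RefSeq, with Python 3.11.15, pandas 2.3.3 and numpy 2.4.6. Alternatives were another pseudocount, other filters, scaling to a common sum, quantile normalization, the 2 groups alone, a replicate block and each library left out.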

Additional observations from a re-analysis of the deposited data

How the results depend on the processing

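Of 38 Hox gene differences called, 33 kept direction and call in every fit that tested them, 5 lost the call in some and 0 reversed. Most share the NSC libraries, and 9 of the 10 genes passed the filter in 1 group. With 2 groups alone, Hoxc6, Hoxc8 and Hoxc13 were untested in EPSCs and ESCs against NSCs. All 6 HoxA genes kept their call between hybrid cells and NSCs where tested. Counts moved with the filter. Without a filter, the calls were 29 for hybrid cells against NSCs, 17 for hybrid cells against EPSCs, 22 for EPSCs against NSCs, 19 for ESCs against NSCs, 8 for EPSCs against ESCs and 16 for hybrid cells against ESCs, out of 37 Hox genes tested. In this order, 23, 16, 16, 13, 5 and 15 were higher in the group named first. Those lower were 6, 1, 6, 6, 3 and 1. Over all 19144 genes, calls in this order were 13278, 5750, 13135, 12962, 8691 and 9672. With a minimum of 0.1 FPKM they were 26, 13 and 20 for the first 3 and 5 and 16 for the last 2, out of 28, beside 13115, 6080, 12936, 8810 and 9737 of all 16300 genes. Against NSCs, 14 were higher and 6 lower in EPSCs. In ESCs 9 were higher and 6 lower, beside 12781 of all genes. Scaled to a sum of 1000000, calls were 8 in hybrid cells against EPSCs, 3 in EPSCs against ESCs and 7 in hybrid cells against ESCs, out of 15, beside 5824, 8236 and 8890 of all 14064 genes. With 2 groups alone, they were 2 in hybrid cells against EPSCs (Hoxb9 and Hoxc6) and 0 in EPSCs against ESCs, where limma tested 1 Hox gene and 0 had an unadjusted p under 0.05.

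Where a library was left out, the lone library of its group was assumed to vary like those of the other groups. This gave 9 to 10 calls in hybrid cells against NSCs, 2 to 4 against EPSCs and 2 to 3 against ESCs, 8 to 10 in EPSCs and 7 to 10 in ESCs against NSCs, and 1 to 2 in EPSCs against ESCs. By over 1.5 times, the counts moved in hybrid cells against EPSCs, to 2 without hybrid library 1 (where Hoxc8 was too low to be tested) and without EPSC library 1, and in EPSCs against ESCs, to 2 without EPSC library 1. By the rule of fold it gave 5 to 5 in hybrid cells against NSCs, 0 to 1 against EPSCs and 0 to 1 against ESCs, and 4 to 4 in EPSCs and ESCs against NSCs, with 1 against EPSCs without EPSC library 2 and 0 against ESCs without ESC library 1.

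With a mean and a ratio over 2, limits that the study's text also uses, the rule of fold passed 7 Hox genes in hybrid cells against NSCs, 2 against EPSCs and 2 against ESCs. After scaling to a sum of 1000000 it passed 8, 1 and 2, and 6 in EPSCs and 6 in ESCs against NSCs. Hox genes with a mean of at least 1 FPKM numbered 4 in hybrid cells, 6 in NSCs, 1 in ESCs and 1 in EPSCs. At a minimum of 0.5 they were 8 in hybrid cells, 4 in ESCs and 3 in EPSCs, at a minimum of 3 they were 1 in hybrid cells, 4 in NSCs, 0 in ESCs and 0 in EPSCs, and after scaling 8 in hybrid cells, 3 in ESCs and 2 in EPSCs. Leaving out a library gave 1 to 1 in ESCs and EPSCs, 5 to 6 in NSCs and 3 to 4 in hybrid cells.

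Scaling moved the median of all genes against NSCs from 0.06 to -0.50 in hybrid cells on the log2 scale, with -0.48 in place of 0.08 for EPSCs and -0.46 in place of 0.03 for ESCs, so that 4244 of 12299 calls were higher in hybrid cells, instead of 5893 of 11449. The HoxA genes stayed lower than in NSCs relative to that shift. Replicate numbers are shared between groups, but nothing says that they mark pairs. With a replicate block, the calls were 10 in hybrid cells, EPSCs and ESCs against NSCs, 4 in hybrid cells against EPSCs, 1 in EPSCs against ESCs and 3 in hybrid cells against ESCs, the same counts as without it, and deviations of same-numbered libraries correlated between -0.112 and 0.28. The cause of the changes between settings was not tested. Depth limits the HoxB, HoxC and HoxD genes under 0.1 FPKM.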

Other observations

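Genes that mark brain regions were also measured in the NSCs in which Hoxa2 to Hoxa7 were read. En2, a gene of the midbrain and hindbrain boundary, was at 18.4 and 17.4 FPKM in NSCs, and Irx3 and Irx5, expressed behind the forebrain, were at 10.6 and 9.68 FPKM and at 13.6 and 12.8 FPKM. Egr2, which is expressed in hindbrain segments and acts upstream of Hoxa2, was at 7.82 and 6.62 FPKM. Lhx2 and Otx1, of the forebrain list, were at 8.45 and 8.78 FPKM and at 6.59 and 7.29 FPKM.

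The nearest protein-coding gene of the table on each side of each cluster, leaving out the homeobox genes Evx1 and Evx2, was read as well, a choice made after values were seen. Skap2, before HoxA, was at 127 and 130 FPKM in NSCs, 29.1 and 31.5 in hybrid cells, 35.9 and 38.9 in EPSCs and 40.5 and 41.7 in ESCs, and fell by 2.05 from NSCs to hybrid cells on the log2(FPKM + 1) scale (limma, adjusted p = 5.36e-08). Hibadh, after HoxA, was at 34.6 and 36.9 FPKM in NSCs and 26.7 and 29.3 in hybrid cells. Beside HoxD, Mtx2 was at 64.8 and 61.9 FPKM in hybrid cells and 21.8 and 21.7 in NSCs, and beside HoxC, Calcoco1 was at 18.03 and 16.7 FPKM in NSCs and 8.63 and 8.82 in hybrid cells. On the other sides of these clusters, Lnp beside HoxD (5.09 and 6.25 FPKM in NSCs, 5.68 and 6.10 in hybrid cells, adjusted p = 0.644) and Smug1 beside HoxC (5.37 and 4.91, 4.32 and 4.51, adjusted p = 0.0762) did not pass. Beside HoxB, Ttll6 and Skap1 were listed at 0 in both NSC libraries, as was Evx1 beside HoxA, and Evx2, beside HoxD, was at 0 in all 8 libraries. The 6 microRNA genes of the clusters in the table were at 0 in all 8 libraries.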
